A study of Arabidopsis thaliana with 22 samples.

Results

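Salt-treated Arabidopsis seedlings were searched for genes whose transcript levels changed sides between the genotypes, with *lrx345* above the wild type after 6 h of NaCl and below it after 72 h. Of 33602 genes counted, 19116 had a mean count of at least 20 over all libraries, and 232 of these had an *lrx345* to wild type ratio of at least 1.4 at 6 h and of at most its inverse at 72 h. The members were thus chosen by measured values of the 6 h and 72 h libraries, as ratios between group means of counts scaled to a common library total (counts per 1e6, CPM), with 1 CPM added to each mean. The 200 genes with the largest ratio at 6 h divided by the ratio at 72 h, called the score here, were kept and are described below. The reverse pattern, lower at 6 h and higher at 72 h by the same cutoffs, was met by 156 genes.

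The wild type was Col-0 and *lrx345* was a triple insertion mutant in the genes *LRX3*, *LRX4* and *LRX5* of the leucine-rich repeat extensin family. RNA came from whole 10-day-old seedlings before treatment (0 h, 2 libraries per genotype) or after 6, 24 or 72 h in 150 mM NaCl (3 libraries per genotype and time), 22 libraries in all. No untreated seedlings were sampled at the later times, so time in salt and age cannot be told apart, and in bulk RNA fewer cells of a type and less RNA per cell cannot be told apart. The methods name biological replicates, and neither they nor the labels say whether these came from separate cultures, so p-values measure the spread between these libraries.

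The libraries held 7413461 to 15047080 counted read pairs. *LRX3*, *LRX4* and *LRX5* were lower in every *lrx345* library than in every wild-type library of the same time. Transcript levels are given as FPKM, the fragments of a gene scaled by its length and by the library size. At 0 h the FPKM in *lrx345* were 9.84 and 11.2 for *LRX3*, 59.9 and 60.9 for *LRX4* and 6.10 and 6.92 for *LRX5*, against 37.3 and 44.8, 80.5 and 96.3, and 36.0 and 40.3 in the wild type. None of 13 root markers and none of 11 leaf mesophyll markers was at 0 in any group. The summed FPKM of the mesophyll markers ran from 22850 to 40450 over the wild-type libraries and from 12710 to 26540 over those of *lrx345*, and was lower in *lrx345* at each time. The summed FPKM of the root markers was 202 to 203 in the wild type and 149 to 212 in *lrx345* at 0 h, 123 to 133 and 46.0 to 52.6 at 6 h, 231 to 267 and 37.9 to 47.3 at 24 h, and 391 to 458 and 115 to 140 at 72 h. The root marker sum was thus below the wild type in the mutant at 6, 24 and 72 h. The part of either marker sum in the results was not tested.

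Plant cells grow when enzymes of the wall loosen and rebuild the network of cellulose, xyloglucan and pectin, and LRX proteins are wall proteins that bind RALF peptides and act together with the receptor kinase FERONIA. Salt disturbs the wall, arrests growth at first and lets it resume as the plant adjusts. Defence genes that respond to jasmonate, salicylate or wall damage are commonly expressed at the expense of growth genes.

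The values that chose the 200 genes are a description and carry no test. *TRM10* (AT4G11780), which belongs to the TON1 recruiting motif family of cortical microtubule proteins, had the largest score, with a ratio of 6.32 at 6 h and 0.213 at 72 h. The last gene kept, *AT3G14840*, had a ratio of 1.54 at 6 h and 0.618 at 72 h. The first genes left out by the limit of 200 were *AT2G42040*, *MYB70* and *BBX28*, with scores of 2.48, 2.48 and 2.47 beside 2.49 for *AT3G14840*, 2.50 for *PGL4* and 2.50 for *SCPL34*. Among the 232 genes, at the 6 h cutoff *AT3G28880*, *AT5G46890* and *CYP76C6* lay just inside with ratios of 1.4035, 1.4037 and 1.4053, and *ROPGEF11*, *TPX2* and *AT5G64880* just outside with ratios of 1.399988, 1.3989 and 1.3981. At the 72 h cutoff *AT1G50040*, *AT3G28880* and *AT2G26440* lay just inside with ratios of 0.714, 0.714 and 0.713, and *MGP*, *AT2G44940* and *RBK1* just outside with 0.715, 0.715 and 0.715. Of the genes just inside these cutoffs, *AT5G46890* and *CYP76C6* were kept among the 200, and the others fell to the limit on the score. In the fit across all genes (edgeR's quasi-likelihood test, Benjamini-Hochberg adjusted p under 0.05 over 21831 genes, all 200 members among them), 188 members were higher at 6 h, where 18.3% of all genes were, and 186 were lower at 72 h, where 30.7% were; the rule fixed both counts.

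The values within each genotype are given as a description. From 0 h to 6 h wild-type seedlings had 18 members higher and 100 lower, where 19.3% and 20.8% of all genes were, and the median member changed by -0.61 (log2). In *lrx345* 86 were higher and 59 lower over the same hours, where 23.9% and 23.1% of all genes were, and the median was 0.26. From 0 h to 72 h the wild type had 72 higher and 35 lower, where 24.7% and 23.2% of all genes were, with a median of 0.26. In *lrx345* 16 were higher and 156 lower, where 34.4% and 33.0% of all genes were, with a median of -1.23. These counts use the libraries that chose the members and share their 0 h libraries, and nothing is read from them beyond the description.

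The rule used no ratio of the 0 h or the 24 h libraries, so the genotype difference at these times was tested. The rule's count minimum, however, was a mean over all 22 libraries. Members near that minimum of 20 could pass it through a 0 h or 24 h group where they were high, and the calls of such members are not independent of the rule. At 24 h the 200 genes had split. In *lrx345* 62 members (31.0%) were higher and 55 (27.5%) lower than in the wild type, 83 passed no threshold, and the median log2 fold change was -0.03. Among all genes 24.3% were higher and 28.4% lower, with a median of -0.08, so both shares lay near the background. At 0 h, before any salt, 55 members (27.5%) were higher in *lrx345*, where 10.0% of all genes were, and 22 (11%) were lower, where 8.02% were. The median member differed by 0.14 at 0 h and the median of all genes by -0.04. Leaving out *lrx345* replicate 2 left 45 members higher and 8 lower at 0 h, and leaving out the wild-type library that has no number of its own left 11 lower.

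The plot of genotype differences by time separates the members by their call at 24 h. The 62 that were higher at 24 h had a median log2 difference of 0.87 at 0 h, 1.27 at 6 h, 1.28 at 24 h and -0.85 at 72 h. The 55 that were lower at 24 h had medians of -0.21, 1.05, -1.01 and -1.81. The groups were formed from the 24 h values and the rule set the sign at 6 h and 72 h, so the course of these medians after 0 h follows from the selection and is no result.

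**Figure D1:**
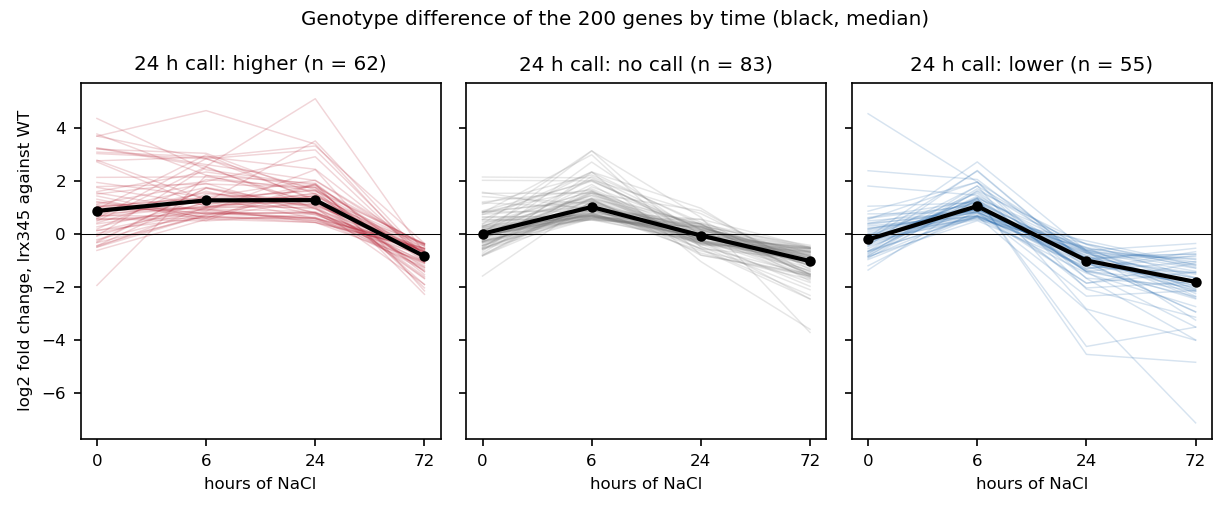
Log2 fold change of the 200 genes, *lrx345* against wild type (vertical axis), at 0, 6, 24 and 72 h of NaCl (horizontal axis, evenly spaced), in panels by the call at 24 h. Thin lines are genes and black lines are medians; the 62 genes higher at 24 h start at a median of 0.87, and the 55 lower genes at -0.21.

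Calls at 0 h and 24 h come from separate libraries. Of the 55 members higher at 0 h, 35 were also higher at 24 h, 14 passed no threshold and 6 were lower. Of the 22 lower at 0 h, 13 were also lower at 24 h, 6 passed no threshold and 3 were higher. Opposite calls were therefore given to 9 of the 200 members (6 went from higher to lower, 3.0%, and 3 from lower to higher, 1.5%), and among all genes these shares were 0.293% and 0.394%. Across the 200 genes the fold changes at the 2 times had a Pearson r of 0.50 and a Spearman rho of 0.48, and across all tested genes 0.48 and 0.46; genes are not independent replicates. When the 0 h difference between genotypes was subtracted from the 24 h difference and the result tested by edgeR, 22 members were higher and 41 lower (11% and 20.5%), where 9.55% and 8.28% of all genes were. Without the wild-type library that has no number 14 were higher.

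**Figure D2:**
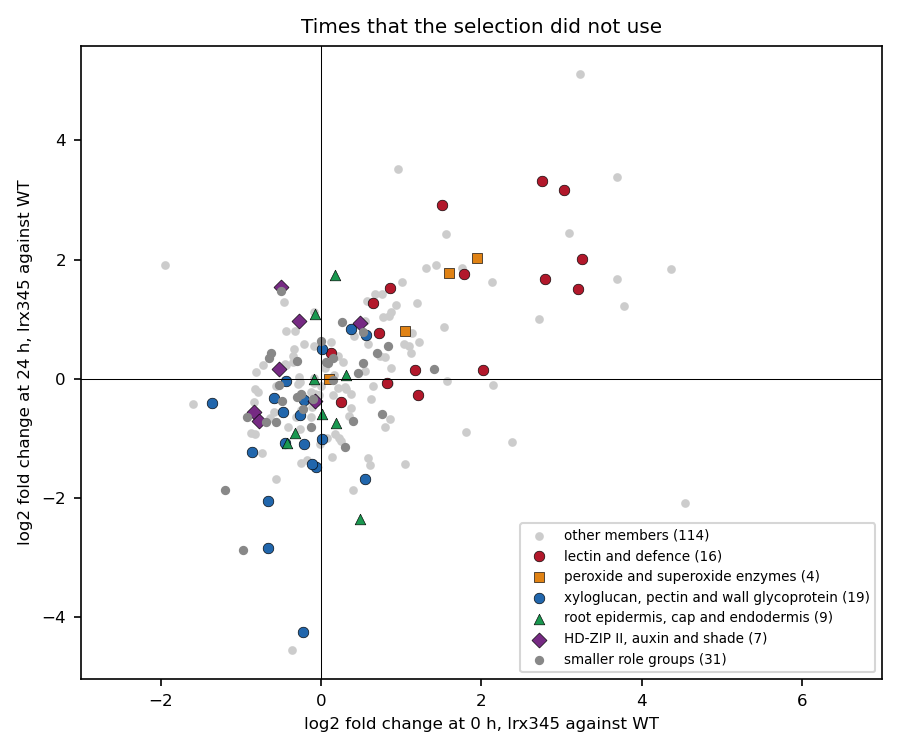
Log2 fold change between *lrx345* and wild type at 0 h (horizontal) and at 24 h (vertical) for the 200 genes, each point a gene, coloured by role. The 16 lectin and defence genes lie to the right with a median of 1.36 at 0 h, and the 19 wall genes lie low with a median of -1.01 at 24 h.

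By the words of their annotated products, 9 members (4.5%) were pectin genes and 5 (2.5%) xyloglucan genes, and these words were found in 0.595% and 0.147% of all tested genes. Lipid-transfer proteins were 10 (5.0%, with 0.33% of all tested genes). This word was not among the key words planned beforehand, and *AT4G22485*, *AT4G22513*, *AT4G22517* and *AT4G22520* among the 10 lie near each other on chromosome 4. Products naming a transcription factor, a DNA-binding domain or a zinc finger of any kind were 26 (13%, with 6.28%), and *PIT1*, a RING/FYVE/PHD zinc finger product, was among them. No member was among the 317 tested ribosomal proteins, the 98 heat shock products or the 23 expansins, products found by the same search. To describe the members by what they do, 86 of the 200 were placed in 11 role groups after their names and values had been seen, and the groups carry no test of their own.

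**Figure D3:**
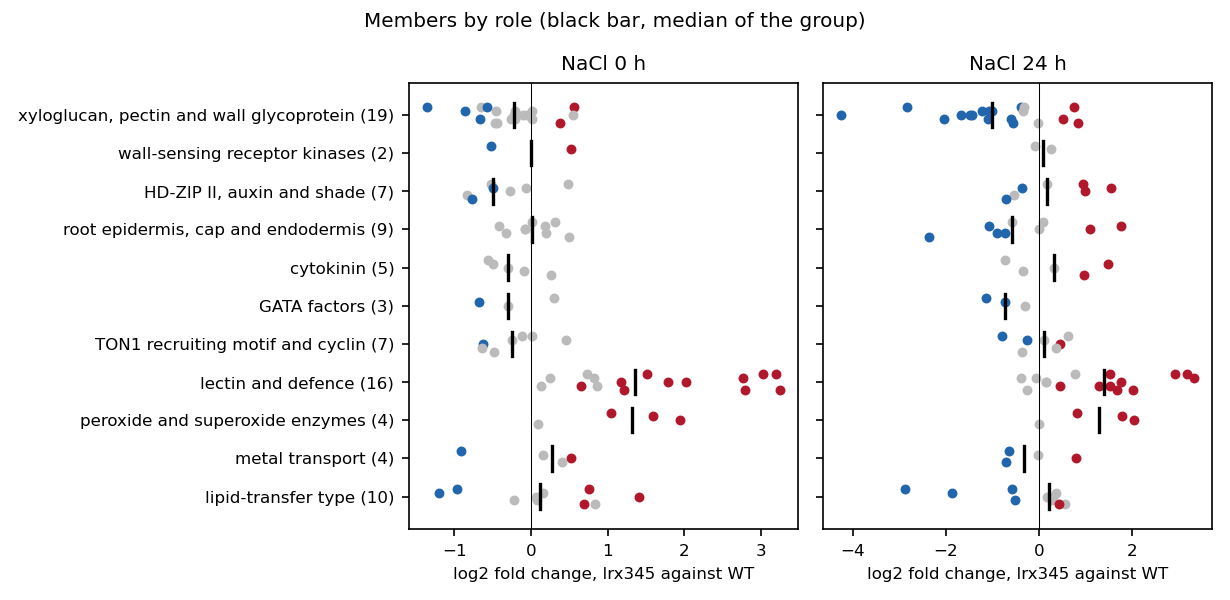
Log2 fold change between *lrx345* and wild type at 0 h (left) and 24 h (right) for the 86 genes in role groups, with the number of genes in brackets. Red points were higher, blue lower and grey passed no threshold (edgeR, adjusted p under 0.05), and black bars are group medians; the wall group shows 13 blue points at 24 h and the lectin and defence group 10 red ones.

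The 19 genes of xyloglucan, pectin and wall glycoproteins were the largest role group. At 0 h 2 were higher and 4 lower in *lrx345*, where 10.0% and 8.02% of all genes were, and the median fold change was -0.23 (log2). At 24 h 13 were lower and 3 higher, and the median was -1.01, beside the 28.4% of all genes that were lower. The root marker sum also fell between these times in the mutant and rose in the wild type, and its part in the wall genes' fall was not tested. At 6 h all 19 wall genes were higher by the fit, a direction that the rule had fixed.

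*XTH26* and *XTH21* encode xyloglucan endotransglucosylase/hydrolases, which cut xyloglucan chains and rejoin them. *XTH26* (AT4G28850) stood at 12.8 and 14.8 FPKM in the wild type at 0 h, at 0.762, 0.243 and 0.686 at 6 h, at 10.3, 9.08 and 10.3 at 24 h, and at 19.4, 15.3 and 16.4 at 72 h. In *lrx345* it stood at 14.2 and 2.69 at 0 h, at 2.85, 2.04 and 1.46 at 6 h, at 1.48, 1.17 and 1.53 at 24 h, and at 0.755, 1.04 and 1.29 at 72 h. The wild type fell at 6 h and came back, whereas every mutant library from 6 h on lay below 3 FPKM and the genotypes did not overlap at 24 h or 72 h. The log2 fold change at 24 h was -2.84 ± 0.43 (SE, n = 3 per genotype, edgeR adjusted p = 8.73e-06), and at 0 h, where the mutant libraries lay far apart, -0.66 ± 0.36 (n = 2, edgeR adjusted p = 0.24). Without *lrx345* replicate 1 the 0 h value was -2.35 (edgeR adjusted p = 5.58e-06), and without replicate 2 it was 0.055.

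*XTH21* (AT2G18800) stood at 10.3 and 8.03 FPKM in the wild type and 7.70 and 8.00 in *lrx345* at 0 h. At 24 h the wild-type libraries held 3.50, 2.81 and 3.99 and the mutant libraries 0.131, 0.337 and 0. These mutant values stand for 1, 3 and 0 counted read pairs, against 38, 28 and 49 in the wild type, so the size of any fold change that uses them is uncertain. The mutant libraries lay just below the lower wild-type library at 0 h and far below all of them at 24 h, by a log2 fold change of -4.25 ± 0.53 (n = 3, edgeR adjusted p = 4.36e-07), and the change of the difference from 0 h to 24 h was -4.03 ± 0.63 (edgeR adjusted p = 7.82e-05). *XTH15* differed by -2.04 ± 0.19 at 24 h, *XTH19* by -1.23 ± 0.18 and *XTH5* by -0.56 ± 0.22 (edgeR adjusted p = 6.34e-09, 6.25e-06 and 0.0418). Among all 29 *XTH* genes tested, a family looked up after these values were seen, 17 were lower and 8 higher at 24 h with a median of -1.13. All 5 members were among the 17, and of the 24 other *XTH* genes 12 were lower and 8 higher. Among all tested genes 28.4% were lower and 24.3% higher at 24 h. At 0 h 12 of the 29 were lower and none was higher by edgeR, where 8.02% of all genes were lower, and *XTH15* and *XTH19* were the members among the 12.

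*BXL1* (AT5G49360), a beta-xylosidase that trims arabinan and xylan side chains and was in the sugar starvation list, took another course. Its FPKM in the wild type were 34.6 and 33.0 at 0 h, 7.74, 8.48 and 8.48 at 6 h, 22.2, 28.6 and 26.4 at 24 h, and 134, 128 and 142 at 72 h. In *lrx345* they were 12.7 and 13.6, then 16.8, 21.7 and 23.9, then 22.3, 19.9 and 16.3, and last 43.9, 44.8 and 39.4. The mutant was below every wild-type library at 0 h and 72 h, above at 6 h, and overlapped narrowly at 24 h. The log2 fold change was -1.37 ± 0.14 at 0 h (n = 2, edgeR adjusted p = 1.85e-07) and -0.40 ± 0.12 at 24 h (n = 3, edgeR adjusted p = 0.00689), a change of 0.97 ± 0.18 (edgeR adjusted p = 0.000653). Without *lrx345* replicate 3 at 24 h the value there was -0.29 and missed the threshold (edgeR adjusted p = 0.0583).

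*LRX2* (AT1G62440), a member of the same family as the 3 disrupted genes and known from root hairs, stood at 7.89 and 9.25 FPKM in the wild type and 8.46 and 5.66 in *lrx345* at 0 h. At 6 h the values were 3.03, 3.08 and 4.44 against 10.5, 14.2 and 11.9, at 24 h 16.6, 17.3 and 20.4 against 9.58, 14 and 11.8, and at 72 h 24.0, 23.7 and 27.5 against 11.6, 9.76 and 9.33. It rose in the wild type after 6 h while the mutant stayed near its 6 h level, and at 24 h it differed by -0.61 ± 0.16 (log2) (edgeR adjusted p = 0.00207). *AT5G62340* and *UNE11*, which carry the pectin methylesterase inhibitor domain, were lower at 24 h by -1.68 ± 0.37 and -1.10 ± 0.35 (edgeR adjusted p = 0.000548 and 0.0122), and *AGP22*, an arabinogalactan protein, by -1.08 ± 0.30 (edgeR adjusted p = 0.0049). The 24 h call of *UNE11* was lost without wild-type replicate 1 (-0.93) or *lrx345* replicate 1 (-0.85).

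The 3 wall genes that were higher in *lrx345* at 24 h all act on pectin. Other members with pectin products were not higher at 24 h. The pectin lyase-like gene *AT3G26610* was lower, and the pectin acetylesterase gene *AT5G23870*, *AT1G02810* and *ATPMEPCRB* passed no threshold. *PME3* (AT3G14310), a pectin methylesterase, was at 172, 207 and 186 FPKM in the wild type and 377, 271 and 297 in the mutant, 0.74 ± 0.11 higher on the log2 scale (edgeR adjusted p = 9.9e-06). The pectin acetylesterase gene *AT4G19420* was higher by 0.84 ± 0.10 (edgeR adjusted p = 2.32e-07), and the pectin lyase-like gene *AT1G70500* was the other. *PME3* and *AT4G19420* were also higher at 0 h, by 0.56 ± 0.14 and 0.38 ± 0.12 (edgeR adjusted p = 0.00557 and 0.0348). The 0 h call of *PME3* was lost without wild-type replicate 1 (0.45) or *lrx345* replicate 2 (0.49). The genotypes did not overlap for *PME3* at 24 h.

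The receptor kinase *THE1*, which responds to defects of the cellulose network, was lower in *lrx345* at 0 h by -0.52 ± 0.12 (n = 2, edgeR adjusted p = 0.00264) and differed by -0.10 ± 0.10 at 24 h (n = 3, edgeR adjusted p = 0.406). Its wild-type values were 31.4 and 29.4 FPKM at 0 h and 14.8, 14.9 and 12.8 at 6 h, and its mutant values 22.1 and 20.2 and then 22.9, 23 and 22.9. The wild type fell from 0 h to 6 h, and the mutant libraries of the 2 times lay close together. The pectin-binding kinase *WAK2* was higher at 0 h by 0.53 ± 0.17 (edgeR adjusted p = 0.0362) and differed by 0.26 ± 0.14 at 24 h (edgeR adjusted p = 0.124). Alpha-expansins are wall-loosening proteins in a fixed list with no member. Of the 16 tested, 8 were lower and 1 higher at 6 h by edgeR, where 17.7% and 18.3% of all genes were. At 24 h 12 were lower and 2 higher, where 28.4% and 24.3% of all genes were. At 72 h 13 were lower and 0 higher, where 30.7% and 31.3% of all genes were.

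Genes of auxin and shade growth gave 7 members, of which 2 were lower and none higher at 0 h by edgeR, and 3 were higher and 2 lower at 24 h. Among all genes 8.02% were lower at 0 h, and 24.3% were higher and 28.4% lower at 24 h, so the 2 of 7 that were lower at 24 h are at the background share. *HAT1* (AT4G17460), an HD-ZIP class II transcription factor that responds to shade, stood at 27.7 and 27.6 FPKM in the wild type at 0 h and 13.4, 15.9 and 11.8 at 6 h, while *lrx345* went from 20.7 and 17.7 to 71.2, 65.2 and 48.8. At 24 h the values were 14.3, 12.8 and 13.7 in the wild type and 12.8, 15.4 and 17.6 in the mutant, which overlapped, with a log2 fold change of 0.16 ± 0.21 (n = 3, edgeR adjusted p = 0.54). *HAT3*, a second factor of the class, held 7.12, 6.70 and 6.80 FPKM in the wild type and 11.8, 15.3 and 13.4 in the mutant at 24 h and was higher by 0.98 ± 0.15 (edgeR adjusted p = 6.62e-06). *HAT2* was lower at 0 h by -0.50 ± 0.17 (n = 2, edgeR adjusted p = 0.04) and higher at 24 h by 1.54 ± 0.14 (n = 3, edgeR adjusted p = 2.28e-09), one of the 3 members that went from lower to higher.

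Of the 6 class II genes tested, looked up after these values were seen, 4 were higher and none lower at 24 h by edgeR, where 24.3% of all genes were higher, and *HB-2* and *HB4* were among those outside the 200. *WAG2*, a kinase that directs auxin efflux carriers, was lower at 0 h by -0.77 ± 0.19 and at 24 h by -0.70 ± 0.15 (edgeR adjusted p = 0.00456 and 0.000453), although its mutant libraries at 6 h held 21.1, 27.2 and 22.2 FPKM against 6.75, 7.80 and 7.14. *NPY2*, related to phototropism proteins, was higher at 24 h by 0.95 ± 0.30 (edgeR adjusted p = 0.0106). *GRH1*, an auxin receptor F-box protein also called AFB1, was lower by -0.37 ± 0.10 (edgeR adjusted p = 0.00267), and *PAR1*, a helix-loop-helix protein that restrains shade growth, differed by -0.55 ± 0.32 (edgeR adjusted p = 0.152).

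Regulators of root epidermis, cap and endodermis gave 9 members, none called at 0 h by edgeR and 6 at 24 h (2 higher, 4 lower), where 24.3% of all genes were higher and 28.4% lower, so these counts lie near the background. *MYB23* (AT5G40330) and *MYB66* (WEREWOLF) are MYB factors of the non-hair cell fate, and *CPC* encodes the small protein that moves from those cells to specify hair cells. *MYB23* held 2.71, 2.37 and 2.72 FPKM in the wild type and 6.28, 9.92 and 10.1 in *lrx345* at 24 h, apart by 1.75 ± 0.21 (n = 3, edgeR adjusted p = 3.8e-07), and at 0 h 2.14 and 1.88 against 2.32 and 2.23 (0.18 ± 0.30, n = 2, edgeR adjusted p = 0.76). *CPC* was higher at 24 h by 1.09 ± 0.27 (edgeR adjusted p = 0.00189), and *MYB66* differed by -0.58 ± 0.28 (edgeR adjusted p = 0.0867). Without wild-type replicate 2 at 24 h *MYB66* was lower by -0.76 (edgeR adjusted p = 0.0337).

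The 4 lower genes at 24 h were *RHS6*, *BST1*, *NAC070* and *AGL12*. *RHS6* (AT1G51880), a receptor-like kinase of root hairs, held 1.16, 0.869 and 1.09 FPKM in the wild type and 0.282, 0.121 and 0.212 in the mutant, a difference of -2.35 ± 0.41 (edgeR adjusted p = 3.95e-05). *BST1*, a phosphatase gene needed for normal root hairs, differed by -0.73 ± 0.20, and *NAC070*, a factor of root cap maturation, by -1.07 ± 0.43 (edgeR adjusted p = 0.0044 and 0.0397). The mean count of *NAC070*, 20.8, lay near the rule's minimum of 20. At 24 h its counts were 17, 13 and 21 in the wild type against 6, 7 and 4 in *lrx345*, so its call is given as a description. The root marker sum was also lower in the mutant at 24 h, and its part in these calls, or in the higher calls of *MYB23* and *CPC*, was not tested. *MYB36*, which drives the Casparian strip genes of the endodermis, differed by -0.00 ± 0.16 at 24 h (edgeR adjusted p = 0.999).

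Of the 5 members placed in the cytokinin group, none was called at 0 h by edgeR. At 24 h 2 were higher and none lower, where 24.3% and 28.4% of all genes were. *LOG1*, which releases active cytokinin, was higher at 24 h by 1.47 ± 0.17 (edgeR adjusted p = 1.91e-07), with 4.75, 5.09 and 3.48 FPKM in the wild type and 11.7, 11.9 and 13.1 in the mutant. The gene *HK5*, annotated only as a histidine kinase, was higher by 0.95 ± 0.17 (edgeR adjusted p = 6.49e-05), although it overlaps a gene on the other strand, and the counts ignored strand. The synthesis gene *IPT5* differed by -0.73 ± 0.33 (edgeR adjusted p = 0.0677) and *CRF2*, a response factor, by 0.31 ± 0.16 (edgeR adjusted p = 0.108). *TRM10*, the gene with the largest score, held 1.27, 1.87 and 1.18 FPKM in the wild type and 15.1, 12.5 and 10.4 in the mutant at 6 h, and 3.85, 3.91 and 3.11 against 0, 0.343 and 0.397 at 72 h. At 24 h *TRM10* differed by 0.63 ± 0.28 (edgeR adjusted p = 0.0609) and at 0 h by 0.01 ± 0.32 (edgeR adjusted p = 1.0). The 24 h value of *TRM10* passed the threshold by DESeq2 (0.68, adjusted p = 0.0265), in the fit of the compared groups alone (0.70), with the other filters (0.67 and 0.71), and without *lrx345* replicate 2 of 0 h (0.68), wild-type replicate 3 of 24 h (0.81) or *lrx345* replicate 1 of 24 h (0.78).

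Pairs of GATA factor and P-type cyclin genes lay near each other on the chromosomes among the members. On chromosome 2 *GATA2* and *cycp3;1* were 7582 bases apart, and on chromosome 3 *GATA4* and *CYCP3;2* were 5418 bases apart, both pairs on 1 strand. *GATA2* was lower at 24 h by -1.15 ± 0.19 and *GATA4* by -0.73 ± 0.10 (n = 3, edgeR adjusted p = 1.96e-05 and 2.09e-06). The cyclin genes *cycp3;1* and *CYCP3;2* differed at 24 h by -0.37 ± 0.27 and 0.36 ± 0.28 (edgeR adjusted p = 0.261 and 0.291). Of 19 *GATA* genes tested, looked up after these values were seen, 6 were lower and 2 higher at 24 h, near the 28.4% of all genes that were lower, and *GATA2* and *GATA4* are among the 6.

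Lectin and defence genes formed the opposite end of the 24 h split. Of 16, 11 were higher in *lrx345* at 0 h and none lower by edgeR, their median being 1.36 (log2), and 10 were higher and none lower at 24 h, their median being 1.39, beside 10.0% and 24.3% of all genes that were higher at these times. The fixed lists of defensins and PR genes (10 genes) and of jasmonate synthesis and JAZ genes (24 genes) held no member, and 8 and 23 of their genes were higher at 72 h, where 31.3% of all genes were. Members of PR type outside these lists were *PRB1*, annotated as a basic pathogenesis-related protein, and *AT4G33720*, of the CAP superfamily. *PRB1* passed no threshold at 0 h or 24 h, and *AT4G33720* passed none at 0 h and was higher at 24 h. The rule set the 72 h direction of the members, so the lists are not compared with them there. The legume lectin genes *AT3G16530* and *AT3G15356*, on chromosome 3, had the largest differences at 24 h in this group.

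*AT3G16530* stood at 65.3 and 66.1 FPKM in the wild type at 0 h, 8.34, 9.0 and 6.64 at 6 h, 46.2, 42.5 and 42.1 at 24 h, and 200, 130 and 133 at 72 h. In *lrx345* it stood at 438 and 640, then 53.5, 57.2 and 61.5, then 419, 395 and 366, and last 89.0, 90.3 and 68.5. The mutant was above every wild-type library at 0, 6 and 24 h and below at 72 h, and both genotypes had their lowest values at 6 h. The log2 fold change was 3.04 ± 0.19 at 0 h (n = 2, edgeR adjusted p = 7.32e-11) and 3.17 ± 0.16 at 24 h (n = 3, edgeR adjusted p = 2.23e-13), and the difference between these was 0.14 ± 0.23 (edgeR adjusted p = 0.745).

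*AT3G15356* behaved alike at 0 h, with 118 and 147 FPKM in the wild type and 727 and 1073 in the mutant, and at 24 h, with 72.4, 78.4 and 70.7 against 775, 726 and 718. The log2 fold changes were 2.76 ± 0.22 and 3.33 ± 0.18 (edgeR adjusted p = 2.53e-09 and 9.67e-13). At 72 h its wild-type libraries held 448, 252 and 256 and the mutant 269, 268 and 209, which overlapped, and the other wild-type libraries lay within the range of the mutant. To compare them with wall genes that moved the other way, the 250 bases before the annotated start of both lectin genes, *XTH26* and *XTH21* are given, read 5′ to 3′ on the gene's strand from TAIR10.1, with the searched motifs in capitals.

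AT3G16530: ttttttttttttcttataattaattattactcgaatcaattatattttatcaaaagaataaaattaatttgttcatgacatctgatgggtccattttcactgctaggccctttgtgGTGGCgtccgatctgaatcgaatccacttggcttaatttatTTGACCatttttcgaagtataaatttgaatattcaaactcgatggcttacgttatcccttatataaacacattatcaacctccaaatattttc
AT3G15356: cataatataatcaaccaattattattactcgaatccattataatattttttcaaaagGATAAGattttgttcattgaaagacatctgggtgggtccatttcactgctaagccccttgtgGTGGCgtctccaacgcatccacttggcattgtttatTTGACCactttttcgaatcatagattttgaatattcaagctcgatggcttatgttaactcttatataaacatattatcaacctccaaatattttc
XTH26: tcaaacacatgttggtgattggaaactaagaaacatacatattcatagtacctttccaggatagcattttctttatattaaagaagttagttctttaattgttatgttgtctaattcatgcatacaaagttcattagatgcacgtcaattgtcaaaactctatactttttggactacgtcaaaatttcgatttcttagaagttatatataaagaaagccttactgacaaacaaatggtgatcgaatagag
XTH21: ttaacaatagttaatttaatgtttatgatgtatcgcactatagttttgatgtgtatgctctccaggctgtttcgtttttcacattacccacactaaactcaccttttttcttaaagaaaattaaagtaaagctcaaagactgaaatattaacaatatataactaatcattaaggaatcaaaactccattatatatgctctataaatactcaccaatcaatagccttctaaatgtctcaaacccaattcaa

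The stretches lie at chr3:5625471-5625720 (minus strand), chr3:5175470-5175719 (minus), chr4:14244045-14244294 (plus) and chr2:8144662-8144911 (plus). The lectin stretches were identical at 206 of 239 aligned bases (86.2%), and both held TTGACC, a W-box, the site of WRKY factors, from base -93 and from base -95, counted from the start. Both also held GTGGC, the reverse complement of GCCAC (a light-related element), and *AT3G15356* held GATAAG, the I-box. No searched motif stood in the stretches of *XTH26* and *XTH21*. This identity was measured on the stretches before the starts and not on the transcripts. Pairs that mapped to several places were not counted, and how far this touched the counts of the 2 lectin genes was not measured.

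The motifs were searched on both strands from 250 bases before to 50 after every gene start. A W-box (TTGACC or TTGACT) was in 64 of the 200 windows (32%) and in 32.5% of the windows of all tested genes. Windows with the G-box (CACGTG) were 5.5% of members and 9.11% of tested genes, with the ABRE core (ACGTGGC) 1.5% and 5.17%, with the site II element (TGGGCC) 3.0% and 17.4%, and with the evening element core (AATATCT) 12.5% and 10.5%. Among the 16 lectin and defence genes 8 (50%) had a W-box, and among the 19 wall genes 4 (21.1%). Over the other role groups the share ran from 0 of 2 wall-sensing receptor kinases to 4 of 4 metal transport genes. It was 2 of 4 among peroxide and superoxide enzymes, so a high share was not particular to lectin and defence genes. The GCC-box (GCCGCC) was in 1.5% of members and 3.84% of tested genes, and the DRE/CRT core (CCGAC) in 13.5% and 17.7%. The telo-box core (AAACCCT) was in 9.5% and 13.3%, the I-box (GATAAG) in 12.5% and 15.4%, and the light-related element (GCCAC, which the ABRE core also holds as its reverse complement) in 20.5% and 21.3%. A match is a description of letters, not of a bound site.

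*ORA59*, an ERF factor that joins jasmonate and ethylene signals, was higher at 0 h by 1.51 ± 0.22 and at 24 h by 2.92 ± 0.19 (edgeR adjusted p = 1.76e-05 and 1.23e-11). Its FPKM at 24 h were 6.13, 4.62 and 5.67 in the wild type and 44.5, 44.0 and 36.0 in *lrx345*, and at 72 h 18.6, 11.6 and 11.3 against 7.62, 7.85 and 5.76. *AACT1*, annotated as an anthocyanin acyltransferase, had the largest difference at 24 h, 5.11 ± 0.24 (edgeR adjusted p = 7.96e-14), from 9.39, 9.32 and 11 to 406, 311 and 314 FPKM, and was higher by 3.23 ± 0.27 at 0 h (edgeR adjusted p = 4.57e-09). *AT1G33760*, an AP2-type DNA-binding protein, was higher at 24 h by 3.51 ± 0.48 (edgeR adjusted p = 1.93e-06) and differed by 0.96 ± 0.77 at 0 h (edgeR adjusted p = 0.462). *AT1G76960*, of no annotated function, was higher by 3.69 ± 0.71 at 0 h and 3.39 ± 0.54 at 24 h (edgeR adjusted p = 0.000491 and 1.57e-05). Its mean count of 23.3 lay near the rule's minimum of 20. At 24 h its counts were 46, 37 and 17 in *lrx345* against 8, 4 and 1 in the wild type, so its calls are given as a description.

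Of the 4 members placed in the role group of peroxide and superoxide enzymes, 3 were higher in the mutant at 0 h. The same number were higher at 24 h, where 10.0% and 24.3% of all genes were at these times. The group was made by hand and need not hold every member of this kind. *CAT3* (AT1G20620), a catalase that breaks down hydrogen peroxide and the member with the highest mean level, held 1077 and 1215 FPKM in the wild type and 2225 and 2511 in *lrx345* at 0 h, and 1236, 1315 and 1319 against 2671, 1978 and 2129 at 24 h. At 72 h the order was reversed, with 2225, 2232 and 2477 against 1501, 1524 and 1389. The wild type thus rose to the level the mutant had before treatment, while the mutant fell, and the groups did not overlap at any time. The log2 fold change was 1.05 ± 0.14 at 0 h and 0.81 ± 0.12 at 24 h (edgeR adjusted p = 9.81e-06 and 4.48e-06).

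The class III peroxidase genes *PRXCA* and *AT4G37520* were higher by 1.6 ± 0.19 and 1.95 ± 0.19 at 0 h and by 1.78 ± 0.16 and 2.03 ± 0.16 at 24 h (edgeR adjusted p = 1.59e-06, 5.45e-08, 2.59e-09 and 1.83e-10). The NADPH oxidase gene *RBOHB* differed by 0.10 ± 0.22 at 0 h and 0.00 ± 0.23 at 24 h (edgeR adjusted p = 0.837 and 0.993). *RBOHB* overlaps a gene on the other strand that has more counts, as 5 of the 200 do, and 15 members overlap some gene.

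**Figure D4:**
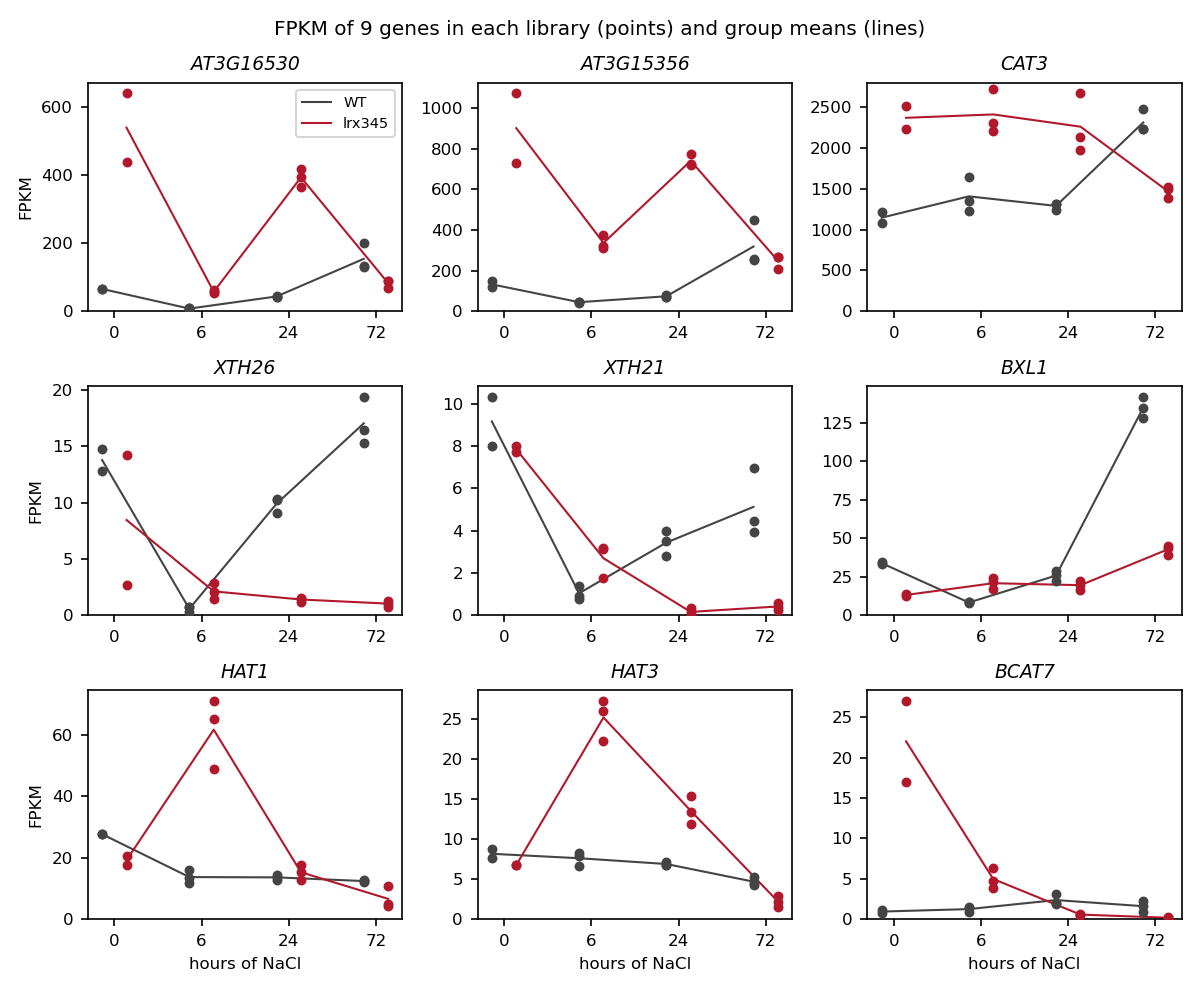
FPKM in each library (points) and group means (lines) at 0, 6, 24 and 72 h of NaCl for 9 of the 200 genes, wild type in grey and *lrx345* in red, each panel with its own vertical axis from 0. *CAT3* in the wild type rises to 2225 to 2477 at 72 h while the mutant falls to 1389 to 1524, and *XTH26* in the mutant stays below 3 from 6 h on.

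Genes of metal and lipid transfer proteins went both ways. *NAS3* (AT1G09240), which makes the metal chelator nicotianamine, was lower at 0 h by -0.92 ± 0.27 and at 24 h by -0.64 ± 0.24 (edgeR adjusted p = 0.0182 and 0.0301), and its FPKM at 72 h were 9.45, 9.24 and 11.6 in the wild type against 1.32, 0.910 and 0.978. *YSL3*, which carries metal-nicotianamine complexes, was higher by 0.52 ± 0.10 and 0.79 ± 0.08 at these times (edgeR adjusted p = 0.00044 and 3.33e-08). *ZIP5*, a zinc transporter of the ZIP family, was lower at 24 h by -0.71 ± 0.24 (edgeR adjusted p = 0.0149), and *YSL1* differed by -0.02 ± 0.13 (edgeR adjusted p = 0.908). The calls of *NAS3* rested on single libraries: at 0 h it was -0.76 without the wild-type library that has no number and -0.52 without *lrx345* replicate 2, and at 24 h -0.58, -0.62 and -0.46 without wild-type replicate 2, wild-type replicate 3 and *lrx345* replicate 1, all past no threshold.

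Of the 10 lipid-transfer type genes, 3 were higher and 2 lower at 0 h, where 10.0% and 8.02% of all genes were, and 1 higher and 4 lower at 24 h, where 24.3% and 28.4% were. *AT4G12490* was higher at 0 h by 0.76 ± 0.24 and lower at 24 h by -0.59 ± 0.19 (edgeR adjusted p = 0.027 and 0.0139). *AT2G45180* fell in both genotypes, from 728 and 874 FPKM to 374, 216 and 279 at 24 h in the wild type and from 321 and 375 to 60, 102 and 76.9 in the mutant, and the mutant was lower by -1.20 ± 0.31 and -1.86 ± 0.27 (edgeR adjusted p = 0.00734 and 4.42e-06). *AT5G46890* was lower by -0.97 ± 0.30 and -2.87 ± 0.60 (edgeR adjusted p = 0.0282 and 0.000332). *AT4G22485* differed by 0.83 ± 0.33 and 0.56 ± 0.27 (edgeR adjusted p = 0.0903 and 0.0844). *AT4G22485*, *AT4G22513*, *AT4G22517* and *AT4G22520* lie near each other on chromosome 4 and have the same annotated product. Their sequence identity was not measured, and how reads divide among them is uncertain. Without 1 library the 0 h call of *AT5G46890* was lost in each of 4 fits (-1.12 to -0.80), and that of *AT2G45180* without the wild-type library that has no number (-1.06) or *lrx345* replicate 1 (-1.09). For *AT4G12490* the 0 h call was lost without wild-type replicate 1 (0.58) or *lrx345* replicate 2 (0.61), and the 24 h call without replicate 1 of the wild type (-0.39) or of *lrx345* (-0.47), while *AT4G22485* was called higher at both times (0.83 and 0.83) without *lrx345* replicate 1 of 24 h.

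*BAM5* and *AT5G04120* were both higher in the mutant before salt. *BAM5* (AT4G15210), a beta-amylase, stood at 0.501 and 0.315 FPKM in the wild type and 9.05 and 7.86 in *lrx345* at 0 h, at 3.55, 4.58 and 3.17 against 18.9, 10.3 and 11.2 at 24 h, and at 14.3, 17.4 and 17.3 against 3.65, 3.60 and 4.64 at 72 h. The difference was 4.36 ± 0.37 at 0 h and 1.85 ± 0.22 at 24 h (edgeR adjusted p = 7.62e-09 and 2.13e-07) and shrank by -2.52 ± 0.47 between them (edgeR adjusted p = 0.000546). From 0 h to 24 h *BAM5* rose by 3.18 ± 0.39 in wild-type seedlings and by 0.67 ± 0.22 in *lrx345* (edgeR adjusted p = 1.93e-06 and 0.0142). *AT5G04120*, a phosphoglycerate mutase family gene, was higher by 3.78 ± 0.38 and 1.22 ± 0.24 at 0 h and 24 h (edgeR adjusted p = 9.89e-08 and 0.000142).

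*BCAT7* (AT1G50090), an aminotransferase-like gene, showed the largest reversal. It held 0.780 and 1.08 FPKM in the wild type and 17 and 27 in *lrx345* at 0 h, and 1.91, 1.99 and 3.16 against 0.676, 0.485 and 0.508 at 24 h, without overlap at either time. The log2 fold change went from 4.54 ± 0.35 to -2.08 ± 0.43 (edgeR adjusted p = 1.57e-09 and 0.000316). The opposite course was that of *ACS11*, which makes the ethylene precursor ACC, with 1.66 and 3.45 against 0.931 and 0.313 FPKM at 0 h and 2.54, 3.18 and 1.91 against 8.19, 10.1 and 10.2 at 24 h. Its log2 fold change went from -1.94 ± 0.59 to 1.91 ± 0.36 (edgeR adjusted p = 0.0225 and 0.000112), and *TRM25* and *HAT2* were the others that went this way. The 0 h call of *ACS11* was lost without the wild-type library that has no number (-1.32) or *lrx345* replicate 2 (-1.44).

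Growth genes that were lower before salt included *GASA1*, a gibberellin-regulated peptide gene, and *BZIP61*. *GASA1* held 247 and 302 FPKM in the wild type and 88.1 and 94.3 in *lrx345* at 0 h, a difference of -1.59 ± 0.23 (edgeR adjusted p = 1.69e-05), and at 24 h it differed by -0.43 ± 0.19 (edgeR adjusted p = 0.0653). *BZIP61* differed by -0.81 ± 0.17 at 0 h and 0.11 ± 0.14 at 24 h (edgeR adjusted p = 0.00168 and 0.523). *MYB55*, a MYB factor, was lower at both times, by -0.88 ± 0.21 and -0.91 ± 0.19 (edgeR adjusted p = 0.00348 and 0.000341), and *ATS*, a KANADI factor of ovule integuments, differed by 0.21 ± 0.32 and 0.38 ± 0.32 (edgeR adjusted p = 0.739 and 0.327). *GASA1* was called lower at 24 h without replicate 1 of the wild type (-0.54) or of *lrx345* (-0.60), and the 0 h call of *MYB55* was lost without *lrx345* replicate 2 (-0.68).

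Other named members were *GRP-3*, a glycine-rich protein, which was higher at 24 h by 0.58 ± 0.24 (edgeR adjusted p = 0.042), and *AT2G25510*, of no annotated function, which was higher by 3.70 ± 0.36 at 0 h and 1.67 ± 0.29 at 24 h (edgeR adjusted p = 6.5e-08 and 4.39e-05). *AT3G59370*, annotated as vacuolar calcium-binding protein-like, had the lowest value at 24 h, -4.55 ± 0.62 (edgeR adjusted p = 1.83e-06), with 8.25, 4.40 and 5.20 FPKM in the wild type and 0.238, 0.205 and 0.268 in the mutant, after -0.36 ± 0.28 at 0 h (edgeR adjusted p = 0.456). Each mutant library of 24 h held 1 counted read pair of *AT3G59370*, against 49, 24 and 35 in the wild type, so the size of this fold change is uncertain. *AT1G76240*, of the DUF241 family, was lower at 24 h by -0.63 ± 0.23 (edgeR adjusted p = 0.0252). *MYB76*, a regulator of aliphatic glucosinolate synthesis, was higher at 0 h by 1.54 ± 0.46 (edgeR adjusted p = 0.0218). Of the 25 tested genes of that pathway in a fixed list, 22 were higher at 0 h and 12 at 24 h, where 10.0% and 24.3% of all genes were, and 23 were lower at 72 h, where 30.7% were. *MYB76* and *BXL1* were the only members found in the fixed lists. Without 1 library the call of *GRP-3* at 24 h was lost in 5 of 6 fits (0.51 to 0.67), that of *AT1G76240* at 24 h in 4 of 6 (-0.58 to -0.46), and that of *MYB76* at 0 h in 3 of 4 (1.07 to 1.66).

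Within each genotype, the 24 h libraries were compared with those of 0 h. In the wild type 40 members rose and 53 fell (20% and 26.5%), where 16.1% and 15.4% of all genes did. In *lrx345* 48 rose and 69 fell (24.0% and 34.5%), where 27.5% and 26.4% did. Of the wall genes 10 fell and 5 rose in the wild type and 10 fell and 7 rose in the mutant. *XTH21* fell by 1.4 ± 0.27 (log2) in wild-type seedlings and by 5.43 ± 0.48 in *lrx345* (edgeR adjusted p = 0.00034 and 3.03e-09), whereas *LRX2* rose by 1.08 ± 0.17 and 0.73 ± 0.18 (edgeR adjusted p = 5.85e-05 and 0.00184).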

How the data were processed

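RNA-seq reads were aligned by the authors to TAIR10 with TopHat2 after FastQC, per the labels, and the deposited counts are whole numbers of read pairs per gene, made with featureCounts 1.4.6 over exons without strand, per the file headers. Pairs that mapped to several places or overlapped several genes were left out by these settings. FPKM were computed here from the counts, with TMM-scaled library sizes and the gene length in the file. One column of the wild type at 0 h carries a replicate number that the labels do not have and was used as a replicate without a number, and no column belonged to a sample outside the series.

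Members and lists were chosen with earlier results of these data known. All 22 libraries were fitted together (edgeR 4.0.16 in R 4.3.3, limma 3.58.1, 8 group means, genes kept by filterByExpr, quasi-likelihood F-test, Benjamini-Hochberg adjustment over 21831 genes, call at adjusted p under 0.05). SE are the log2 fold change divided by the square root of F. Alternatives were DESeq2 1.42.0, upper-quartile factors, other filters, a replicate block, only the groups compared, and leaving out each library of 0 h and 24 h. Libraries of a group differed by more than sampling noise (chi-square per degree of freedom 2.52 to 15.1). The test was checked on simulated counts. Of changes by a factor of 1.4 it recovered 47.76% at 24 h, 26.87% at 0 h and 7.46% for the change of the difference. Of changes by a factor of 2 it recovered 83.58%, 80.6% and 70.15%. A member without a call may therefore still differ by such amounts. Of the calls, 2.53% to 3.57% were false. Gene names came from RefSeq by identifier (32835 of 33602 matched). Gene starts are those of the count table, and sequence is from TAIR10.1: 98.1% of 119704 gaps between exons of the table's genes began with GT and ended with AG there.

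Named genes were the 10 members with the largest score, the 10 with the highest mean FPKM, the 5 highest and 5 lowest called at 24 h, the 3 highest and 3 lowest called at 0 h, up to 4 members of each fixed list, 6 transcription factors by score, and the genes beside each cutoff. Members described by role beyond these were chosen after their values were seen.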

Additional observations from a re-analysis of the deposited data

Results flagged for a closer look

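For 16 of the 37 named genes the log2 difference between genotypes changed from 0 h to 24 h (edgeR's test of the 24 h difference less the 0 h difference, adjusted p under 0.05), where 17.8% of all genes passed. Some of the 37 were named as the highest or lowest at 0 h or 24 h, which favours such a change. The difference moved down for *BCAT7* (-6.63), *AT3G59370* (-4.19), *XTH21* (-4.03), *RHS6* (-2.84), *AT5G04120* (-2.56), *BAM5* (-2.52), *AT5G62340* (-2.24), *XTH26* (-2.18), *AT2G25510* (-2.02) and *AT4G12490* (-1.34). It moved up for *ACS11* (3.86), *AACT1* (1.88), *MYB23* (1.56), *GASA1* (1.17), *BXL1* (0.97) and *BZIP61* (0.92). For *BCAT7*, *AT4G12490* and *ACS11* the genotypes changed places between the times, and for *BAM5*, *AT5G04120*, *AT2G25510* and *AACT1* the mutant was higher at both times.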

How the results depend on the processing

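The counts of members called in *lrx345* against the wild type at 24 h were 59 to 71 higher and 46 to 66 lower over DESeq2, upper-quartile factors, other filters, the replicate block and the fit of the compared groups alone, beside 62 and 55. Leaving out each 0 h or 24 h library in turn gave 57 to 66 higher and 42 to 55 lower at 24 h, 40 to 58 higher and 8 to 23 lower at 0 h (8 without *lrx345* replicate 2, 11 without the wild-type library that has no number), 29 to 40 and 37 to 54 for the wild type from 0 h to 24 h, 35 to 49 and 62 to 70 for *lrx345*, and 14 to 24 and 31 to 40 for the change of the difference (14 without the same wild-type library). Every leave-one-out setting kept the call of 87 of 117 members at 24 h and of 43 of 77 at 0 h. With 2 libraries per genotype, a genotype at 0 h is left with 1, which is assumed to vary like the other groups. Same-numbered libraries did not deviate together in the 2 genotypes (correlations at 6 h 0.093, 0.062 and 0.079, at 24 h -0.031, -0.075 and 0.001, at 72 h -0.115, 0.04 and -0.101), so the numbers were not taken as pairs, and the replicate block, which leaves out the library without a number, gave 12 lower members at 0 h in place of 22, 33 that fell in the wild type in place of 53, and 14 in place of 22 for the change of the difference. A ratio of 2 in place of 1.4 left 46 genes. With 0.1 CPM added, 316 genes met the cutoffs and 159 members stayed among the 200, with a mean count of at least 50 these were 174 and 147, and with TMM-scaled library sizes 190 and 180, and leaving out each 6 h or 72 h library gave 217 to 268 genes that met the cutoffs in place of 232. Upper-quartile factors moved the member fold changes by a median of -0.09 at 24 h and -0.10 for *lrx345* from 0 h to 24 h. Small differences changed sign without a call. At 0 h *TRM10* gave -0.008 with upper-quartile factors, -0.288 with the block and -0.422 to 0.419 when each library was left out (-0.316 without the wild-type library that has no number), *MYB66* gave -0.011 with the block and -0.386 to 0.313 (-0.097 without that library), and *ATS* gave -0.145 with the block and -0.072 to 0.568. *UNE11* at 0 h ran from -0.827 to 0.196 and *BZIP61* at 24 h from -0.023 to 0.278 over these fits. *XTH26* at 0 h ran from -2.354, where it was called lower, without *lrx345* replicate 1 to 0.055 without *lrx345* replicate 2. The cause was not tested.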
